A study of Mus musculus and Homo sapiens with 12 samples.

Results

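In mouse large intestine, 2466 regions carried a peak in all 4 acetyl libraries and no peak in any of the 4 butyryl libraries. In CUT&Tag an antibody against a histone mark brings a transposase to chromatin, and the fragments that it cuts out there are sequenced. H3K18ac and H4K12ac (Kac) were measured in 2 replicates each, and so were H3K18bu and H4K12bu (Kbu). All peaks of the 4 Kac lists were merged where they overlapped or touched, and a merged region was kept when each of the 4 lists had a peak in it. This gave 9911 regions, of which 2466 (24.9%) shared no base with a peak of the 4 Kbu lists. The remaining 7445 (75.1%) overlapped at least 1 Kbu peak by 1 bp or more, and they are the regions to which the first set was compared. The 9911 regions were 1.03% of the 963522 merged Kac regions.

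The tissue came from male CETP-ApoB-100 transgenic mice, with tissue of 2 mice per condition by the design text and no age given. In the reason for the diet, the methods of the study speak of an ApoE-deficient transgenic mouse, and this difference in genotype is not explained there. The labels give a high fat, high sucrose diet for the Kac libraries and the same diet with 5% arabinoxylan, a dietary fiber, for the Kbu libraries. The methods of the study instead describe a low fat control group and a high fat, high sucrose group that received arabinoxylan, so that the diet of the Kac mice is uncertain. By the labels, Kac and Kbu mice differed in diet as well as in the mark profiled, and by the methods they may differ. Diet and mark therefore cannot be told apart. No control IgG library and no Kac library of the arabinoxylan diet was used here. The labels name colon epithelium, but pieces of large intestine were homogenized in bulk, so a peak can come from any cell type of the wall. A weaker mark and fewer cells with the mark cannot be told apart in such tissue. Whether the replicates of different marks come from the same mice is not given in the sources used here.

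Histone acetylation neutralizes the positive charge of lysine and is found at active promoters and enhancers. Butyrylation places a longer acyl chain on the same lysines, and butyrate itself is made by gut microbes from dietary fiber and is oxidized by colonocytes. Acetyl and butyryl groups compete for one residue on one histone tail, but an interval of chromatin from many cells can hold both. Absence from a peak list is a statement about detection in that list.

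The Kbu lists were much shallower than the Kac lists. The Kac lists held 299840, 299861, 299778 and 299623 peaks (H3K18ac replicates 1 and 2, then H4K12ac replicates 1 and 2), at the limit of 300000 that the authors set. The Kbu lists held 60813, 50675, 50932 and 96432 peaks in the same order of residues. The pileup is the number of read ends, each extended to 73 bp, that cover a peak summit. A pileup of 1 made up 72.1%, 52.0%, 52.8% and 12.8% of the peaks of the Kac lists. It made up 89.9%, 90.6%, 91.4% and 89.2% of the peaks of the Kbu lists. The lowest background of each list sets an upper limit on its read ends, which is not a measured depth. The limit was 2.27, 3.86, 3.26 and 5.49 M for the Kac libraries and 0.544 M for each Kbu library. The lowest background was 0.0146 in all 4 Kbu lists, although these held 50675 to 96432 peaks. It therefore does not tell the depths of the Kbu libraries apart. The methods of the study give a far higher average of uniquely mapped reads per sample, and this gap was not examined. Only 40.1%, 37.3%, 38.1% and 51.7% of the 9911 regions had a peak in H3K18bu replicate 1, H3K18bu replicate 2, H4K12bu replicate 1 and H4K12bu replicate 2. Absence of a Kbu peak was therefore not evidence of absence of the mark at this depth.

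The limit on the Kac lists also shaped which regions had a peak in all 4 of them. Peaks tied at the lowest p of a Kac list, all with a pileup of 1, lay on chromosomes 1 to 19 in H3K18ac replicate 1. They lay only on chromosomes 1 and 10 to 14 in H3K18ac replicate 2, on 1 and 10 to 13 in H4K12ac replicate 1, and on chromosome 1 in H4K12ac replicate 2. Regions without a Kbu peak made up 41.2% of the regions of chromosome 1, where 455 of 1105 were found. Their share was between 25.4% and 35.4% on chromosomes 10 to 14 and between 12.9% and 21.4% on the others. Of the 2466 regions, 1406 lay on chromosomes 1 and 10 to 14, and 74.0% of those had a pileup of 1 in at least 1 Kac library. On the other chromosomes 1060 regions remained (18.3% of 5798), and 26.6% of those had such a library. Values of width, position, biotype, Kac signal and bins are therefore also given for the other chromosomes alone, a division made after the values had been seen.

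**Figure D1:**
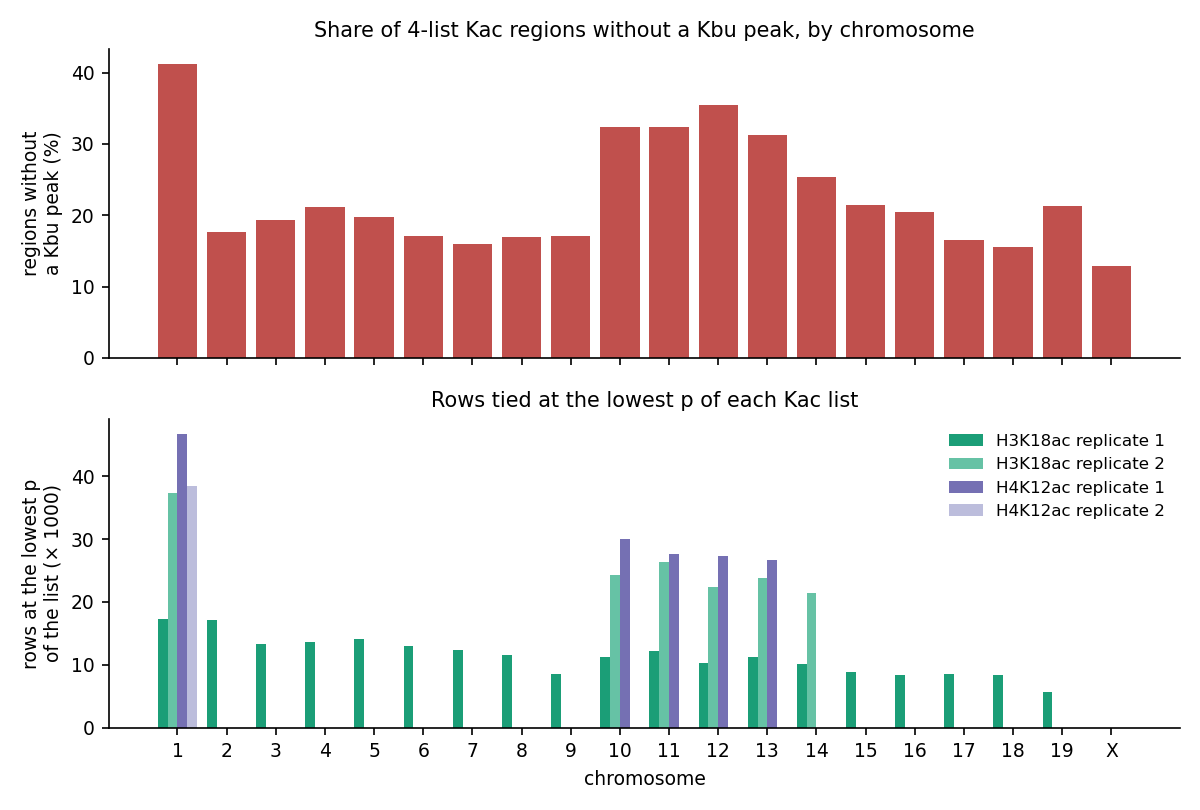
Top, share of the 4-list Kac regions on each chromosome that had no Kbu peak (%). Bottom, peaks tied at the lowest p of each Kac list (in units of 1000), by chromosome and library. Chromosome 1, where all 4 lists held tied peaks, had the highest share (41.2%), and chromosomes 10 to 14 came next (25.4% to 35.4%).

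The tissue label was checked against marker genes with a peak of pileup 2 or more within 1 kb of a gene end. Of 12 absorptive colonocyte markers, 10, 12, 6 and 8 had such a Kac peak in H3K18ac replicates 1 and 2 and H4K12ac replicates 1 and 2. Among all protein-coding genes the shares were 35.4%, 45.6%, 47.8% and 62.0%. Colonocyte markers were thus above the background in H3K18ac (83.3% and 100%) and close to it in H4K12ac (50.0% and 66.7%). Of 16 epithelial identity genes, 12, 12, 9 and 11 had a peak, with Cdx2 and Hnf4a, which encode intestinal transcription factors, among them in every Kac library. Stem and crypt markers reached 9, 8, 5 and 8 of 12, below the background in H4K12ac replicate 1. Goblet cell markers reached only 5, 5, 3 and 5 of 12, below the background in 3 of 4 Kac libraries, and enteroendocrine and tuft cell markers 3, 2, 2 and 5 of 10, below it in all 4. Smooth muscle markers reached 2, 3, 7 and 4 of 10, above the background in H4K12ac replicate 1 (70.0%, and 50.0% for the colonocyte markers) and below it in the others. Fibroblast markers reached 2, 4, 3 and 0 of 10. Immune markers reached 4, 4, 5 and 4 of 12, enteric neuron and glia markers 3, 1, 4 and 3 of 9 and endothelial markers 2, 2, 3 and 2 of 6. Of the fibroblast, immune, neuron and glia and endothelial lists, only the endothelial one was above the background in any Kac library (50.0% in H4K12ac replicate 1). Of 12 genes of other tissues, 1, 3, 4 and 7 had a peak, below the background in all 4 but close to it in H4K12ac replicate 2 (58.3%). Of 12 housekeeping genes, 4, 9, 7 and 11 had one, above the background in all but H3K18ac replicate 1. In the Kbu lists (H3K18bu replicates 1 and 2, then H4K12bu) a peak of this pileup was at 4.83%, 3.79%, 7.76% and 16.7% of coding genes. It was at 4, 3, 3 and 3 colonocyte markers and 8, 4, 3 and 6 epithelial identity genes, above the background in each, and at 0, 1, 2 and 4 housekeeping genes. Stem and crypt markers with such a Kbu peak were 2, 1, 0 and 1 of 12, below the background in both H4K12bu replicates. Goblet cell markers were 1, 1, 1 and 0 of 12, below it in H4K12bu replicate 2. Enteroendocrine and tuft cell markers were 0 of 10 in each Kbu list. Among smooth muscle, fibroblast, immune, neuron and glia, endothelial and other-tissue genes, the only one with such a Kbu peak was S100b, in H4K12bu replicate 2.

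The sequences of 3 gene starts that lie wholly inside a region of either kind are printed as examples of the covered DNA. Apobec1 and Pgm2l1 are among the strongest regions without a Kbu peak, and Irak4 is among the strongest with one. Each sequence runs from 250 bases before the gene start to 50 bases into the gene, 5′ to 3′ on the strand of the gene, from RefSeq on GRCm38.p6, with CG pairs in capitals. Apobec1 is on the minus strand of chr6:122602395-122602694, Pgm2l1 on the plus strand of chr7:100227357-100227656 and Irak4 on the plus strand of chr15:94543410-94543709.
Apobec1: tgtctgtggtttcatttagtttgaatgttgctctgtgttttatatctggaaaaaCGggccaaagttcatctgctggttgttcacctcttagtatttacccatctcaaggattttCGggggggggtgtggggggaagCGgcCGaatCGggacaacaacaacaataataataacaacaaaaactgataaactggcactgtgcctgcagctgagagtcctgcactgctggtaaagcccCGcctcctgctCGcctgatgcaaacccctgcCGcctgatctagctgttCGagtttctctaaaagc
Pgm2l1: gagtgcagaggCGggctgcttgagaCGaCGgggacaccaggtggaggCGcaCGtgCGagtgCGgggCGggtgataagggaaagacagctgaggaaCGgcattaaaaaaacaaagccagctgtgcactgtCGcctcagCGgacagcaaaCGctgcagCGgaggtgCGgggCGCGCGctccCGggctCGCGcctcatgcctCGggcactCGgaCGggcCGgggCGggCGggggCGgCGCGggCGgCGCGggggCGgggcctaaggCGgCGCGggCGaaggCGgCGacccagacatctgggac
Irak4: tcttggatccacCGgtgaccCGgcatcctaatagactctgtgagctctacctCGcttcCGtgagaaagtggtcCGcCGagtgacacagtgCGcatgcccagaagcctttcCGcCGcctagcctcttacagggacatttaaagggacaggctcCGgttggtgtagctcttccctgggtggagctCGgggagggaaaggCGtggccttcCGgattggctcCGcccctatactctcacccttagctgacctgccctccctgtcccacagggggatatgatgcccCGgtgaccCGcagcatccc
The Apobec1 promoter holds 9 CG pairs at 48.3% GC, the Pgm2l1 promoter 39 at 72.0% and the Irak4 promoter 16 at 61.0%.

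Regions without a Kbu peak were slightly narrower. Their median width was 536 bp (quartiles 414 and 681 bp, range 83 to 1659 bp), against 594 bp (463 and 767 bp, range 73 to 1680 bp) for those with a Kbu peak. The ratio of medians was 0.902, and on the other chromosomes it was 0.941 (564 against 599 bp). The ratio within each Kac library, from its own regions, was 0.770, 0.358, 0.354 and 0.854, all below 1. Those regions are mostly peaks of single lists, so their spread (SD 0.266) is not an error of the merged ratio. A wider region has more room for a Kbu peak, which links width to the way the sets were made. The share without a Kbu peak fell from 37.1% of regions under 300 bp to 14.6% of regions of 1000 bp or more. On the other chromosomes it was 18.9% under 300 bp, 25% from 300 to 400 bp and then lower in each wider bin, down to 11.6%.

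Position relative to genes differed more. Regions were placed at a gene end when they lay within 1 kb of either end of a RefSeq gene, in a gene body when they overlapped a gene elsewhere, and outside genes otherwise. Of the 2466 regions without a Kbu peak, 475 (19.3%) were at a gene end, 1180 (47.9%) in a gene body and 811 (32.9%) outside genes. The 7445 regions with a Kbu peak were at a gene end in 2672 cases (35.9%), in a body in 3079 (41.4%) and outside in 1694 (22.8%). The gene-end share was thus lower by 16.6 percentage points (−16.6), and the shares in bodies and outside genes were higher by 6.49 and 10.1 points. Taken from the regions of each Kac library alone, which are mostly peaks of single lists, the differences were −13.6, −14.8, −18 and −15.2 points. Their SD (1.87 points) is not an error of the merged difference, and single Kbu lists gave differences from −0.98 to −20.1 points. Regions are not replicates and the 4 Kac libraries were compared to the same Kbu lists, so no p is given for this difference. On the other chromosomes the difference was smaller, with 24.1% against 36.5% at a gene end (−12.4 points), 50.7% against 42.2% in bodies and 25.3% against 21.3% outside genes. At gene starts, which are known by strand for all chromosomes but 18, the shares were 13.1% (317 of 2418) and 29.7% (2132 of 7184), a difference of −16.6 points. Off chromosomes 1 and 10 to 14 they were 18.2% (184 of 1012) and 30.2% (1354 of 4477).

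**Figure D2:**
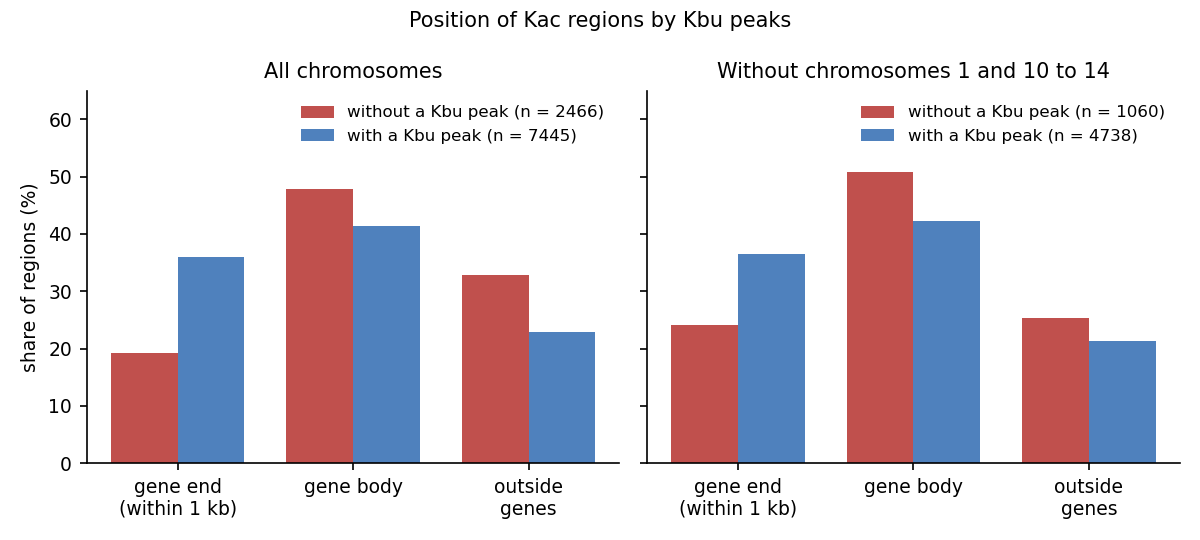
Share of Kac regions (%) at a gene end, in a gene body and outside genes, for regions without (red) and with (blue) a Kbu peak, on all chromosomes (left) and without chromosomes 1 and 10 to 14 (right). The gene-end bar without a Kbu peak is lower in both panels, 19.3% against 35.9% and 24.1% against 36.5%.

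Protein-coding genes made up less of the gene ends in regions without a Kbu peak. Of the 475 regions at gene ends, 332 (69.9%) were at a protein-coding gene, 128 (26.9%) at a lncRNA gene, 38 (8.0%) at a pseudogene and 23 (4.84%) at a small RNA gene. A region can be at several genes. With a Kbu peak, the shares were 80.7%, 24.6%, 3.93% and 2.73% of 2672. As shares of all regions of a set, protein-coding ends were 13.5% and 29.0%, while pseudogene ends were 1.54% and 1.41% and small RNA ends 0.933% and 0.981%. The lower share at gene ends therefore lay with protein-coding genes and, to a smaller degree, lncRNA genes (5.19% and 8.81%). Coding ends on the other chromosomes were 17.6% and 29.8% of all regions, lncRNA ends 6.04% and 8.99%, pseudogene ends 1.70% and 1.33% and small RNA ends 0.943% and 0.802%.

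The Kac signal itself was lower where no Kbu peak was called. The median of the highest fold over local background in a region was 2.69, 2.72, 2.72 and 3.19 in H3K18ac replicates 1 and 2 and H4K12ac replicates 1 and 2. With a Kbu peak it was 3.63, 3.75, 3.32 and 3.98. The differences in median log2 fold were −0.43, −0.47, −0.29 and −0.32, a mean of −0.38 with an SD of 0.086 over the 4 Kac libraries. The fold was lower in 4 of 4 libraries. No p is given here either, since the 4 libraries also chose the regions and were divided by the same Kbu lists. On the other chromosomes the mean was −0.31, lower in 4 of 4. The median pileup was 2, 2, 2 and 3 without a Kbu peak and 3, 4, 3 and 4 with one. All of these are counts of a few read ends, so a difference of 1 read end decides much of the comparison. The highest pileups in any region without a Kbu peak were 11, 19, 11 and 19, against 46, 60, 111 and 355.

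The share of regions that met a Kac threshold in all 4 libraries was lower without a Kbu peak. A pileup of at least 2 in all 4 Kac libraries was met by 1143 (46.4%) of them and by 6285 (84.4%) of those with a Kbu peak. A q below 0.05 in all 4 was met by 54 (2.19%) and 958 (12.9%). These shares were 73.4% and 91.4% for the pileup and 3.58% and 13.4% for q on the other chromosomes. A base covered by a peak of all 4 lists was present in 1369 (55.5%) and 5378 (72.2%), and in the remainder the 4 peaks were joined through neighbours.

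**Figure D3:**
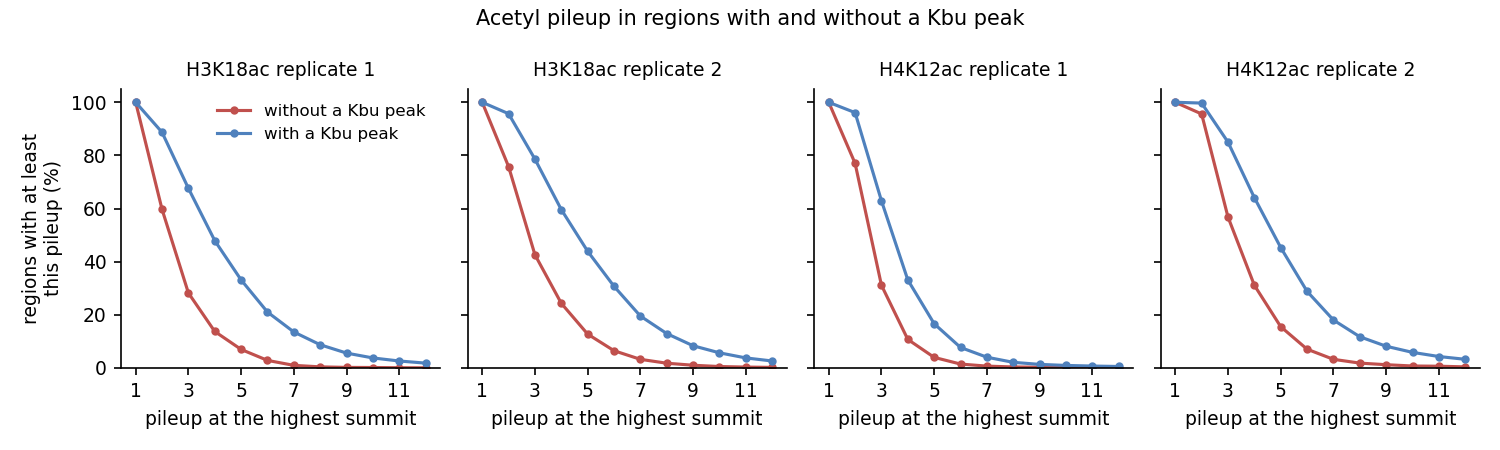
Share of regions (%) whose highest Kac pileup was at least the number of read ends on the x axis, in each Kac library, for regions without (red) and with (blue) a Kbu peak. The red line lies below the blue line from a pileup of 2 in all 4 libraries, with medians of 2 to 3 against 3 to 4.

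Since width and pileup differed, gene-end shares were also compared within bins of either. In every width bin the share was lower without a Kbu peak, from 15.1% against 23.6% under 300 bp to 29.3% against 54.4% at 1000 bp or more. With a lowest Kac pileup of 1 the shares were 16.3% and 41.0%, with 2 they were 22.0% and 36.1%, and with 3 they were 24.3% and 34.1%. With a lowest pileup of 4 they were 33.3% and 32.9%, but only 21 regions without a Kbu peak entered that bin. At 5 or more there were 6 such regions of 318, 50.0% of them at a gene end against 31.4%. The share of regions without a Kbu peak fell steeply over these bins, from 53.3% at 1 through 21.1%, 8.98% and 3.27% to 1.89% at 5 or more. Over these bins the difference at gene ends narrowed as the Kac pileup rose, and at the highest pileups too few regions were left to compare. When regions with a Kbu peak were instead balanced to the same spread of Kac −log10 p, the difference was −15.8 points, close to the −16.6 of all regions. Gene-end shares on the other chromosomes were 25.5% and 55.1% with a lowest pileup of 1, 22.6% and 35.2% with 2 and 27.3% and 34.9% with 3. There the share without a Kbu peak was lower in 5 of 6 width bins, and under 300 bp it was higher, 23.9% of 46 regions against 21.2%.

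**Figure D4:**
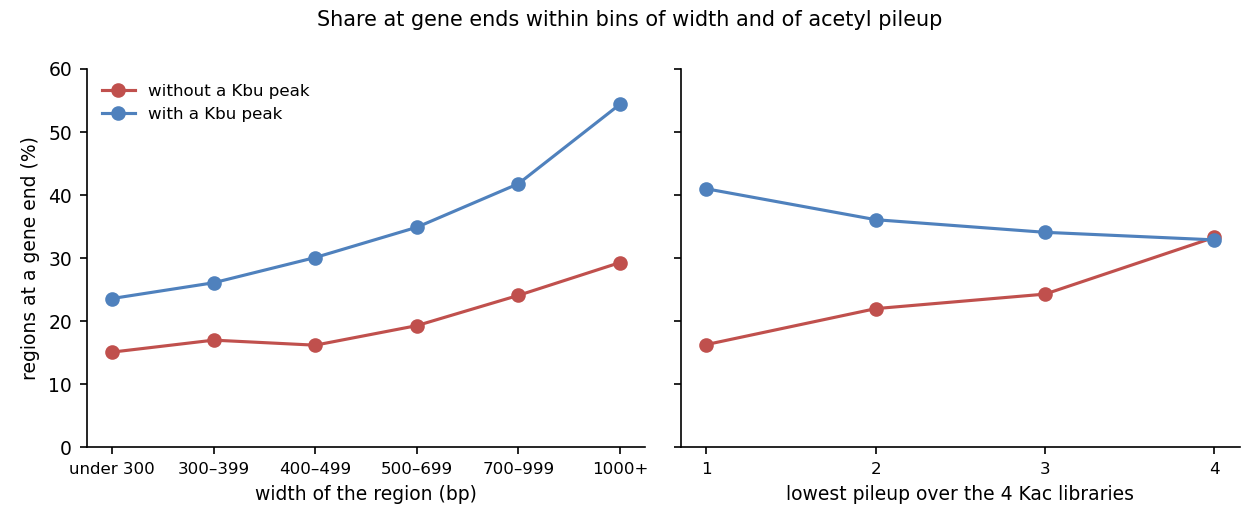
Share of regions at a gene end (%) within bins of region width in bp (left) and of the lowest pileup over the 4 Kac libraries (right), without (red) and with (blue) a Kbu peak, for bins with at least 20 regions without a Kbu peak. The red points are lower in all 6 width bins, and the lines meet at a pileup of 4 (33.3% and 32.9%).

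The number of regions without a Kbu peak was still falling with each Kbu list added. It averaged 5767.5 with 1 list (4785 to 6216 over the 4 lists), 4012.7 with 2 (3505 to 4496), 3054.5 with 3 (2860 to 3453) and 2466 with 4. The count therefore had no plateau at the depth of these lists. A peak in 1 Kbu list was present in 2354 regions, in 2 lists in 2218, in 3 in 1708 and in all 4 in 1165. Over 0 to 4 lists, the gene-end share was 19.3%, 28.8%, 40.3%, 38.7% and 37.7%, and the median width 536, 561, 588, 620 and 643 bp. The gene-end shares on the other chromosomes were 24.1%, 29.3%, 40.5%, 38.7% and 38.7%. The gene-end share was thus lowest without any Kbu peak, intermediate with 1 list and similar from 2 upwards. Of the regions with 1 Kbu list, 81% had a Kbu pileup of only 1.

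Kac lists shortened to the length of a Kbu list also missed many regions. Of the regions defined by 3 Kac lists, the strongest peaks of the fourth Kac list missed 51.8% to 73.7% (median 61.5%) when it was shortened to the length of a Kbu list. The Kbu lists themselves missed 58.6% to 73.3% (median 70.0%). The order depended on the Kac library. The shortened list of H4K12ac replicate 1 missed more than the Kbu list in all 4 pairs (65.7% to 73.7% against 59.3% to 71.0%), and the other 3 Kac libraries missed fewer in all 12 pairs. The shortened Kac lists still held few peaks with a pileup of 1 (0% to 13.1%), so that they were equal in length but not in depth. The part of list length in the absence of Kbu peaks was not tested.

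Each Kbu library was then held out, and regions without a peak in the other 3 Kbu lists were asked whether the held-out library had one. It did in 17.3%, 15.7%, 13.8% and 28.6% of them (H3K18bu replicates 1 and 2, H4K12bu replicates 1 and 2). At gene ends the share was higher by 1.90, 1.61, 7.38 and 18.8 points than elsewhere. The mean was 7.41 points (SD 8.02), with 4 of 4 libraries higher. The 4 sets share the 2466 regions without any Kbu peak, so the 4 values are not independent replicates, they describe the same lists in another way, and no p is given. On the other chromosomes the differences were −5.11, −2.01, 5.88 and 14.9 points, with a mean of 3.43 and 2 of 4 libraries higher. The count of libraries was also 2 of 4 with Kbu peaks of q below 0.05, with Kbu pileups of at least 2, without tied Kac peaks and for the stretch covered by all 4 Kac lists. H4K12bu libraries were higher at gene ends in both calculations, and H3K18bu libraries changed sign between them.

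The 2 butyryl marks also gave different values when each was taken alone, a division made after the values had been seen. For H4K12bu, regions without a peak in either replicate were at a gene end in 19.9% of 3763 cases, against 39.0% of 6148 with one (−19.1 points). The single replicates gave −15.4 and −20.1 points, and the other chromosomes gave −16.7 (−13.9 and −17.5). For H3K18bu the shares were 29.5% of 4496 and 33.6% of 5415 (−4.18 points), with −2.56 and −0.98 for the single replicates. On the other chromosomes the H3K18bu difference was 0.154 points (0.966 and 1.84). At gene starts the differences were −18.9 points for H4K12bu and −4.63 for H3K18bu, and −16.5 and −0.231 on the other chromosomes. Regions with a peak of H3K18bu alone (1297) were at a gene end in 21.2% of cases, against 19.3% of those with neither mark, and on the other chromosomes the order turned (21.4% and 24.1%). Regions with H4K12bu alone (2030) reached 41.9%, and those with both marks (4118) 37.6%, with 43.1% and 37.9% on the other chromosomes. The lower share of gene ends among regions without a Kbu peak thus went with the H4K12bu lists. With 2 libraries per mark an exact permutation test cannot go below p = 0.333, and the difference between the marks was not tested. The Kac fold differed between these sets as well, since regions with H3K18bu alone had median folds of 3.40, 3.59, 2.76 and 3.49 and those with H4K12bu alone 2.83, 3.40, 3.32 and 3.90 in the 4 Kac libraries, and its part in the result was not tested.

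**Figure D5:**
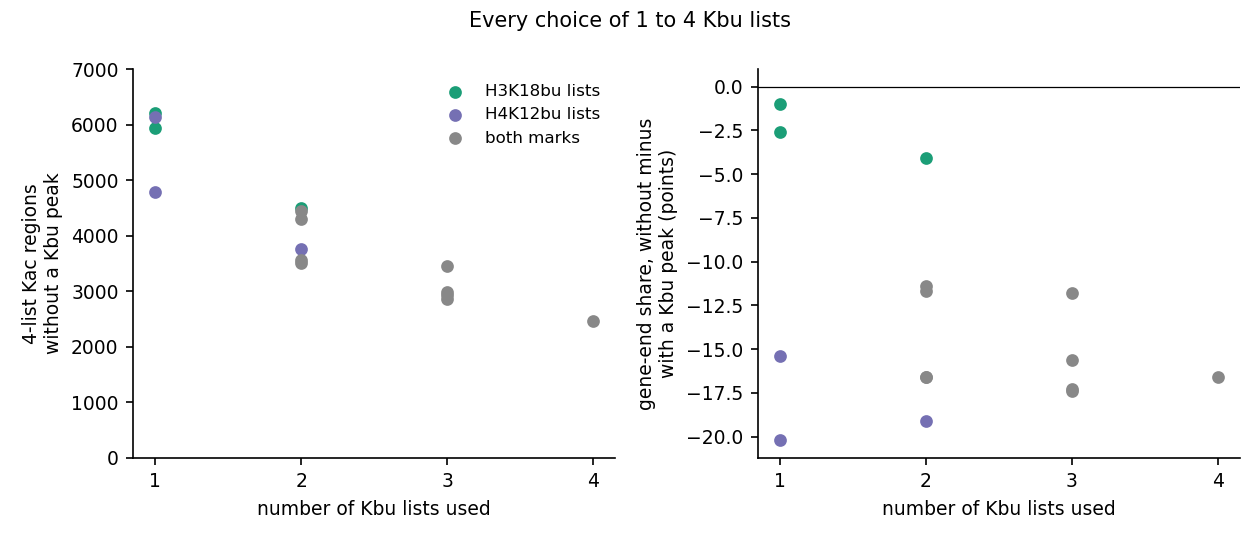
Each point is 1 choice of 1 to 4 Kbu lists. Left, number of the 9911 Kac regions without a peak in the chosen lists. Right, gene-end share of regions without minus that of regions with a peak in them (percentage points). The number falls to 2466 with all 4 lists, and H3K18bu lists taken alone (green) lie between −0.98 and −4.18 points while H4K12bu lists taken alone (purple) lie between −15.4 and −20.1 points.

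Distances from regions without a Kbu peak to the nearest Kbu peak varied widely, and no comparison with random positions was made. The median distance to the nearest Kbu peak was 3316 bp (quartiles 774 and 8458 bp), 128 regions lay within 100 bp and 714 (29.0%) within 1000 bp. At the other extreme, 510 (20.7%) were more than 10000 bp away, and the farthest was 252662 bp away. Just inside the rule were regions in the bodies of Nlrc3, 1 bp from a Kbu peak, and Hhipl2, 2 bp away, and one at an end of the lncRNA Gm36495, 2 bp away. Just outside it were regions at chr14:66953195-66953629 and chr15:85646588-85647177, each with 1 bp of overlap, and chr13:112141013-112141645 with 3 bp. Overlap was usually much larger, with a median of 297 bp or 53.6% of the region, and it was under 20 bp in 34 regions. The median distance from a region without a Kbu peak to the nearest region with one was 75955 bp, and 8.88% lay within 10000 bp. Between regions with a Kbu peak these values were 46996 bp and 18.2%.

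At protein-coding gene ends, 385 of 21887 genes had a region without a Kbu peak (1.76%) and 2409 had one with a Kbu peak (11.0%). A region of each kind was at the ends of 34 genes (0.155%), and whether this differs from unrelated sets was not tested. With gene bodies included, 1309 genes (5.98%) and 4269 genes (19.5%) had a region of the first and the second kind. Off chromosomes 1 and 10 to 14 the shares of 15714 genes were 1.39% and 9.97% at an end and 4.30% and 18% in all. Counts for the gene groups below are read against these shares.

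The strongest region without a Kbu peak at a coding gene was at the ends of Aspa, which encodes an enzyme that cleaves N-acetylaspartate, and Spata22, a meiotic recombination gene (chr11:73326410-73326913). Its pileups were 5 and 9 in H3K18ac and 5 and 6 in H4K12ac, with folds of 4.81, 8.20, 4.81 and 5.24. It lay 422 bp from the nearest Kbu peak. B4galt4, a galactosyltransferase gene, came next with pileups of 6, 6, 6 and 7 at chr16:38741606-38742025, 326 bp from a Kbu peak. The 4 values of B4galt4 are nearly equal, whereas H3K18ac replicate 2 was highest at Aspa.

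Srgap3, a GTPase-activating protein gene of the Slit and Robo pathway, had pileups of 5, 11, 5 and 7 at its start (chr6:112946679-112947396). Sytl4, which encodes granuphilin, a regulator of vesicle exocytosis, had 3, 4, 4 and 7 (chrX:133981228-133981903). Its nearest Kbu peak was 13849 bp away. Nbas, a gene of Golgi-to-ER transport, had 3, 3, 9 and 14 (chr12:13269059-13270109), so that both H4K12ac replicates were above both H3K18ac replicates. Lrit3, a gene of the retinal bipolar cell synapse, had 3, 3, 5 and 8 (chr3:129805093-129805885).

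Apobec1 encodes the cytidine deaminase that edits the Apob transcript in intestine. The Kac region over its start (chr6:122602212-122602744, sequence above) had pileups of 4, 5, 5 and 6 and folds of 4.39, 4.37, 4.81 and 4.79. No Kbu peak lay within 3492 bp. Pgm2l1, a gene of the phosphoglucomutase family, shares its CG-rich start with the lncRNA Gm34877. Its region (chr7:100227190-100228664) is 1475 bp wide, the second widest without a Kbu peak, with pileups of 3, 4, 3 and 7 and 15058 bp to the nearest Kbu peak. Both were named by a ranking on the weakest of the 4 Kac libraries, which favors regions of even height.

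The 5 strongest regions with a Kbu peak at coding gene ends are given beside these, and they come from a larger set (2672 regions at gene ends against 475). Scarb2, a lysosomal membrane protein gene, had Kac pileups of 14, 17, 10 and 14 and Kbu pileups of 6, 4, 1 and 1 (H3K18bu, then H4K12bu; chr5:92504463-92505097). Il7, a cytokine gene, had 10, 10, 12 and 13 with Kbu pileups of 5, 5, 1 and 3 (chr3:7612711-7613529). The shared start of Pus7l and Irak4, a kinase gene of Toll-like receptor signaling, had 7, 11, 10 and 13 (chr15:94543403-94544000). Kbu pileups there were 2 in H3K18bu replicate 1 and 2 in both H4K12bu replicates, and H3K18bu replicate 2 had no peak. Ces2b, a carboxylesterase gene, had 12, 13, 6 and 8 with Kbu pileups of 3, 4, 1 and 2 (chr8:104841080-104841770). Gtf3a, a gene of RNA polymerase III transcription, had 7, 9, 8 and 10 with 1, 3, 2 and 2 (chr5:146948727-146949540). Even at these regions the Kbu pileups were between 1 and 6.

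Outside genes, the strongest region without a Kbu peak was at chr3:61049952-61050352, with pileups of 5, 6, 3 and 4. The next were chr14:16156846-16157436 with 3, 4, 3 and 4 and chr9:78532256-78532820 with 6, 5, 5 and 5, the latter 157 bp from a Kbu peak. Those at chr9:116300786-116301524 and chr2:33654362-33654818 had 5, 5, 3 and 4 and 3, 3, 3 and 6. The last lay 34262 bp from a Kbu peak. None of these 5 exceeded a pileup of 6 in a library.

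The widest region without a Kbu peak, in the body of Ptgfrn (chr3:101057748-101059406), was 1659 bp wide but had a pileup of 2 in each of the 4 Kac libraries. Another at chr12:69556054-69557422 was 1369 bp wide with 2 in each library. Those at chr10:111746215-111747608 (1394 bp) and at an end of the small gene Gm25408 (chr12:31057466-31058811, 1346 bp) had pileups of 3, 5, 2 and 2 and of 2, 4, 2 and 3. The second widest was the Pgm2l1 region described above. Each of the 5 widest thus had a pileup of at least 2 in all 4 Kac libraries, which 46.4% of regions without a Kbu peak had.

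The 5 genes taken as those with the most regions without a Kbu peak were long ones on chromosomes 1 and 13. Nckap5 and Pard3b, the latter a cell polarity gene, had 6 each over 917.2 and 1003.6 kb, beside 2 and 3 regions with a Kbu peak. Pam, which encodes the enzyme that amidates peptide hormones, had 5 over 274.8 kb, beside 4 with a Kbu peak. The lncRNA Gm26861 and the kinesin gene Kif26b had 4 each and none with a Kbu peak. At least Smyd3, also on chromosome 1, was tied with them at 4 and was not taken. Chromosomes 1 and 13 both held tied peaks of at least 3 Kac lists.

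Regions of either kind were also counted at marker genes of the tissue. None of the markers of absorptive colonocytes (12), goblet cells (12), stem and crypt cells (12), enteroendocrine and tuft cells (10), fibroblasts (10) or endothelial cells (6), and none of 16 epithelial identity genes, had one at an end or in the body. Regions with a Kbu peak were found at or in 5 of the 12 colonocyte markers, 3 of the 12 stem and crypt markers, 3 of the 16 epithelial identity genes and 1 of the 12 goblet cell markers. Over all coding genes the shares were 5.98% and 19.5%. At a background of 5.98%, a list of 12 genes can easily hold none, so the absence is not read as a result about the markers.

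The regions with a Kbu peak at these epithelial genes ranged from low to high Kac pileups. Vil1, which encodes the brush border protein villin, had Kac pileups of 8, 13, 3 and 3 and Kbu pileups of 4 and 1 in H3K18bu and 2 in H4K12bu replicate 2. Slc5a8, a transporter of butyrate, had 2, 4, 2 and 3 with 2 in H3K18bu replicate 1 only. Prom1 had 7, 8, 6 and 3 at its end with 3 in H3K18bu replicate 1 and 1 in H4K12bu replicate 2. Hnf4g, a transcription factor gene of the intestinal epithelium, had 6, 7, 3 and 5 with 1 in H3K18bu replicate 2 only. H3K18ac was higher than H4K12ac at Vil1 and Hnf4g in both replicates.

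Of 12 genes of butyrate transport, sensing and oxidation, none had a region without a Kbu peak, and 4 had one with a Kbu peak at an end (33.3%, against 11.0% of coding genes). Besides Slc5a8 these were Acadm, which encodes medium-chain acyl-CoA dehydrogenase, and Etfa and Etfb, whose products take electrons from such dehydrogenases. Acadm had Kac pileups of 4, 3, 3 and 4 and Kbu pileups of 3, 3, 3 and 6. Etfa had 4, 5, 3 and 3 with 1, 3, 2 and 2, and Etfb had 4, 4, 3 and 5 with 1, 1, 3 and 6. At Acadm the Kbu and Kac pileups overlapped, and H4K12bu replicate 2 had the highest of the 8 values. In the Kac lists alone, 11, 10, 8 and 11 of the 12 genes had a peak of pileup 2 or more within 1 kb of an end. These shares were above those of all coding genes in each Kac library. With 12 genes, nothing particular to the list is read from the Kbu count.

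Among genes of histone acylation, Ep300, Kat2b and Kat6b of the acyltransferases and Hdac2, Hdac4 and Hdac9 of the deacetylases had a region of either kind. Ep300, which encodes the acetyltransferase p300, had a region without a Kbu peak at its start (chr15:81585336-81585704) with pileups of 4, 4, 2 and 3, 664 bp from a Kbu peak. Kat2b and Kat6b, other acetyltransferase genes, had 1 each in the body, with 2, 4, 4 and 3 and with 2, 1, 3 and 2. Thus 3 of the 9 acyltransferase genes had a region without a Kbu peak and none had one with it, against 5.98% and 19.5% of coding genes, and with 9 genes nothing particular to the list is read from this. Among 11 histone deacetylase genes, Hdac2 had a region with a peak in all 4 Kbu lists at its start, with Kac pileups of 4, 5, 7 and 10 and Kbu pileups of 2, 1, 2 and 4. Hdac4 and Hdac9 each had 1 region without a Kbu peak in the body, beside 3 and 2 with one. The regions without a Kbu peak in Kat6b, Hdac4 and Hdac9 lie on chromosomes 14, 1 and 12 and have a pileup of 1 in at least 1 Kac library.

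Markers of other cells of the gut wall gave 4 regions without a Kbu peak, at 1 of 10 smooth muscle, 1 of 12 immune and 2 of 9 enteric neuron and glia genes and at none of the 10 fibroblast and 6 endothelial genes. With lists of this size and a background of 5.98%, no difference from all coding genes or from the epithelial markers is read from these counts. Ret, the receptor tyrosine kinase gene needed for the enteric nervous system, had one at an end (chr6:118197179-118197747) with pileups of 2, 2, 2 and 5, 809 bp from a Kbu peak. Those in the bodies of Gfap, a glial gene, Myocd, a smooth muscle regulator, and Ptprc, the gene of the leukocyte antigen CD45, had pileups of 1, 2, 3 and 5, of 1, 1, 1 and 3 and of 1, 2, 1 and 1. Each of these 3 bodies lies on chromosome 1 or 11 and rests on a pileup of 1 in at least 1 Kac library. Synpo2 and Smtn, smooth muscle genes, were the only markers of these cells with a region that had a Kbu peak. Of 12 housekeeping genes only Hsp90ab1 had a region, with a Kbu peak, and of 12 genes of other tissues none had one.

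Of 5 genes that the study names for mouse intestine, none had a region without a Kbu peak. Akap9 had 2 regions with a Kbu peak in its body, with Kac pileups of 5, 15, 6 and 5 and of 3, 7, 3 and 6. Cyria had 1, with Kac pileups of 1, 1, 2 and 3 and an overlap of 14 bp with a peak of H4K12bu replicate 2. Fgf14, Fgfrl1 and Cldn3 had no region with a peak in all 4 Kac lists.

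Promoters of both kinds of region were rich in CG pairs. All 27025 genes of the RefSeq promoter table matched the gene table, and promoters were counted when their 300 bases overlapped regions of 1 kind only. The 200 promoters of coding genes at regions without a Kbu peak had a median of 20.0 CG pairs and 60.5% GC. The 1835 at regions with a Kbu peak had 20.0 and 60.7%, and all 21263 coding promoters had 13 and 56.3%. Short motifs were searched on both strands in the same 300 bases, and GGGCGG itself holds a CG pair. GGGCGG was present in 57.5% and 62.6% of the promoters at regions without and with a Kbu peak, against 46.2% of all. CCAAT was present in 27.0%, 32.4% and 38.2%, TATAAA in 6.50%, 5.18% and 12.6%, and TGANTCA in 4.00%, 5.29% and 6.99%. Both sets of coding promoters lay on the same side of all coding promoters in each of these counts. Over promoters of all genes the sets were further apart in CG pairs, with medians of 18 and 20.0 (lower quartiles 9 and 12), and GGGCGG was present in 53.6% of 250 and 60.5% of 2135.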

How the data were processed

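CUT&Tag peak lists of 8 mouse libraries were used. According to the submitters' processing notes, cutadapt 1.9.1, Bowtie2 2.3.1 and MACS2 2.1.0 were used, with the builds hg38 and mm10. The authors deposited 1 list per library, called at p = 0.01 with a limit of 300000 rows, without pooling replicates. Each deposited peak has a fold ratio to its own library's local background, with −log10 p, −log10 q and a summit position. The cell line lists were not used here.

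The deposited fold is (pileup + 1) / (background + 1) and p is a Poisson tail at the pileup. Both were solved for the pileup and background, with 100% of peaks within 0.01 of the −log10 p in the file. On simulated peaks, the pileup was recovered for 100% of 5964 with Kac and of 6000 with Kbu backgrounds, and 100% of 1678 planted regions were found. Upper limits of read ends took a genome of 2.72 Gb, the summed highest coordinates. Summits of 28 to 175 rows per Kac list were given as chromosome positions and were converted. The lists give no read totals, so no count model was fitted, and a pileup of 1 carries a counting error as large as itself.

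Regions were merged, classified against the RefSeq genes of GRCm38.p6 (mm10) and compared with scipy 1.17.1, pandas 2.3.3 and numpy 2.4.6 in Python 3.11.15. The 9911 and 2466 regions were found again with bedtools 2.31.1. Two-sided exact sign-flip permutations over 4 libraries had been planned for 2 differences. Such a test cannot reach 0.05 with 4 libraries, and the libraries share their regions, so no p-values are given. Replicates may be technical in part.

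Named regions were ranked by the lowest over the 4 Kac libraries of the highest −log10 p. The 8 highest at coding ends, 5 outside genes and 5 widest without a Kbu peak were taken. Also taken were 5 genes with most such regions, of which Gm26861 and Kif26b were tied at 4 with at least Smyd3, which was left out. The 5 highest with a Kbu peak at coding ends were added. List genes with only regions without a Kbu peak at an end and 5 genes the study names completed the set. Regions and lists were chosen with earlier results of these data known. Alternatives were stricter q, pileup, tie, overlap and window settings, balanced comparison sets and leaving out each library. The division by chromosome, the division by mark and the marker check at pileup 2 were added after the values had been seen.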

Additional observations from a re-analysis of the deposited data

Results flagged for a closer look

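Among 12 values checked for a library far from the other 3 of its kind, 1 stood apart. The median Kac fold of regions without a Kbu peak was 3.19 in H4K12ac replicate 2, against 2.69 to 2.72 in the other Kac libraries. This is the Kac library with the highest upper limit of read ends (5.49 M), and the part of depth in the value was not tested. Chance marks about 1 in 20 such groups.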

How the results depend on the processing

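The number of regions without a Kbu peak (2466) depended on thresholds. It was 8277 with Kbu peaks of q below 0.05, 6030 with Kbu pileups of at least 2, 54 with Kac peaks of q below 0.05, 1142 without Kac peaks tied at the lowest p and 1060 without chromosomes 1 and 10 to 14. Leaving out each library gave 2860 to 6734. Without 1 Kac library it was 6450 and 5764 (H3K18ac replicates 1 and 2) and 6734 and 5511 (H4K12ac), since fewer lists then had to hold a peak. Stricter settings change these counts by construction.

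The gene-end difference (−16.6 points) stayed negative in all 21 alternatives. It was −8.71 with Kac q below 0.05 (54 regions), −12.3 without tied Kac peaks, −11.0 for the stretch covered by all 4 Kac lists, −14.1 for 400 bp around the highest summit, −20.3 with no Kbu peak within 1 kb, −14.5 with the comparison set balanced on width (−15.8 on Kac −log10 p) and −12.4 without those chromosomes. Leaving out each library gave −18.5 to −11.8, the latter without H4K12bu replicate 2. No alternative left out both H4K12bu lists. Against the H3K18bu lists alone the difference was −4.18 points, and it was 0.154 points on the other chromosomes. The cause was not tested.

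The held-out difference (7.41 points) turned to −6.83 with Kac q below 0.05 (1 of 4 libraries), and the cause was not tested. Its other 18 alternatives were positive, between 2.60 and 10.6 points, but only 2 of 4 libraries were then higher in 5 of them. The width ratio and the log2 fold difference kept their direction in all 16 and 19 alternatives. The log2 fold difference (−0.38) shrank to −0.17 with Kac q below 0.05 and was −0.65 when taken on the pileup. No paired analysis was possible because no result tests one group of libraries against another, so the replicate numbers had nothing to pair. Depth limits all statements on absence, since most Kbu peaks had a pileup of 1.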
